A study of Mus musculus with 36 samples.

Results

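The genes described here are 135 genes with less RNA in hearts without Klf15 than in control hearts at every time of day sampled. They were chosen by measured values: a mean of at least 1 FPKM (fragments scaled to gene length and library total) over all 36 libraries, a cK15 minus control difference in mean log2(FPKM + 1) below 0 at each of 6 times, and an average of these differences of -0.5 or lower. Of 10599 genes that reached the FPKM minimum, among 23352 gene entries, 162 met these thresholds. Of those, 27 were left out by name, among them Klf15 itself, Bckdha, Bcat2, Pdk4, Adhfe1 and genes of the Gst, Cox and Col families. All genotype differences of the 135 genes are therefore descriptions, given with their standard errors (SE) and without a test.

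The libraries came from the apex of the heart of male mice, 11 to 12 weeks of age, with a light and a dark phase of 12 h each; the labels give the strain as C57BL/6 and, for the growth of the animals, as C57BL/6J. The 18 cK15 libraries are from mice whose labels give a knockout of KLF15, and the 18 control libraries are from mice that carry the α-MHC cre transgene, whose promoter is active in heart muscle cells. There were 3 libraries per genotype at 12 am (read as midnight), 4 am, 8 am, 12 pm (read as noon), 4 pm and 8 pm. Whether the cK15 mice also carry the transgene, and when the lights went on, could not be read from the labels. Nothing in the labels says that the 3 libraries of a group are from separate animals, so p-values measure only how these libraries vary, and that variation may be technical.

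Klf15 is a zinc-finger transcription factor of the Kruppel-like family, whose members bind GC-rich and CACCC-containing DNA. In heart, skeletal muscle and liver it is known as a regulator of nutrient use, above all of the breakdown of branched-chain amino acids and of lipid oxidation. The heart covers most of its energy need by burning fatty acids and uses glucose, lactate, ketone bodies and amino acids beside them.

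Klf15 itself was at 0.406, 1.28 and 2.91 FPKM in control (lowest, median and highest of 18 libraries), was listed at 0 in 13 of 18 cK15 libraries and reached 0.326 FPKM in the highest of them, so the groups did not overlap. The depth of the libraries is unknown. Their FPKM summed to between 534039 and 691583, and 12 of the 36 libraries, 6 of each genotype, stood apart with 16.1% to 17.7% of their FPKM in the 10 most abundant genes, against 21.7% to 25.0% in the other 24. At 8 pm these are the replicates 4, and at the other 5 times replicate 1 of cK15 and replicate 2 of control. Every one of the 135 genes had a difference below 0 on average in the 24 libraries and in the 12 libraries taken alone, and 112 were below 0 at all 6 times within the 12. The genes were chosen by these same libraries, which largely sets these signs, so nothing is read from them. The differences in the 2 sets were more than 1.5 times apart for 18 genes, larger in the 24 libraries for 15 of them and in the 12 for 3, which were A530016L24Rik (-0.38 and -0.87), Lgals4 (-0.68 and -1.21) and Slc37a2 (-0.56 and -0.88). Of the heart muscle cell markers, 3 of 8 were higher in cK15 and none lower by limma (adjusted p under 0.05), and of 7 endothelial markers none was called in either direction. Of 7 smooth muscle and pericyte markers 1, Acta2 (-0.345), was lower and none higher. Of 3 atrial markers tested 1, Myl7 (-0.77), was lower and none higher, with Nppa at 0.555 and not called. No gene of the marker lists is among the 135, and Myl7 was left out of them by name.

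Over the 135 genes the median difference was -0.71 on the log2(FPKM + 1) scale, against -0.012 over all tested genes. At -1 or lower stood 26 genes, and 109 lay between -1 and -0.5. In the averaged contrast that also chose them, limma called 131 of the 135 lower, where 7.18% of all tested genes were called lower and 4.06% higher. Over all tested genes these are 761 lower and 430 higher genes, a split that became 637 and 606 with median-ratio rescaling of the libraries and 608 and 632 with quantile normalization. With libraries of the same replicate number treated as related (a replicate block), 252 were lower and 94 higher. Of the 135, the 4 not called without the block were Cib3, Gm5512, Malat1 and Rps12, named for that reason after their values were seen. In 42 of the 135 genes the 18 cK15 libraries all lay below the 18 control libraries, which held for 0.604% of tested genes. The same contrast chose the genes, so nothing is read from these counts. Control levels reached from a median of 1.17 FPKM (Cib3) to 2495 FPKM (Ech1), with a median over the genes of 10.3 FPKM. No library was listed at 0 for 120 of the genes, 15 were listed at 0 in at least 1 cK15 library and 2 in at least 1 control library. On the log2(FPKM + 1) scale the change of a gene near 1 FPKM is understated. In bulk tissue, fewer cells of a type and less RNA per cell cannot be told apart.

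**Figure D1:**
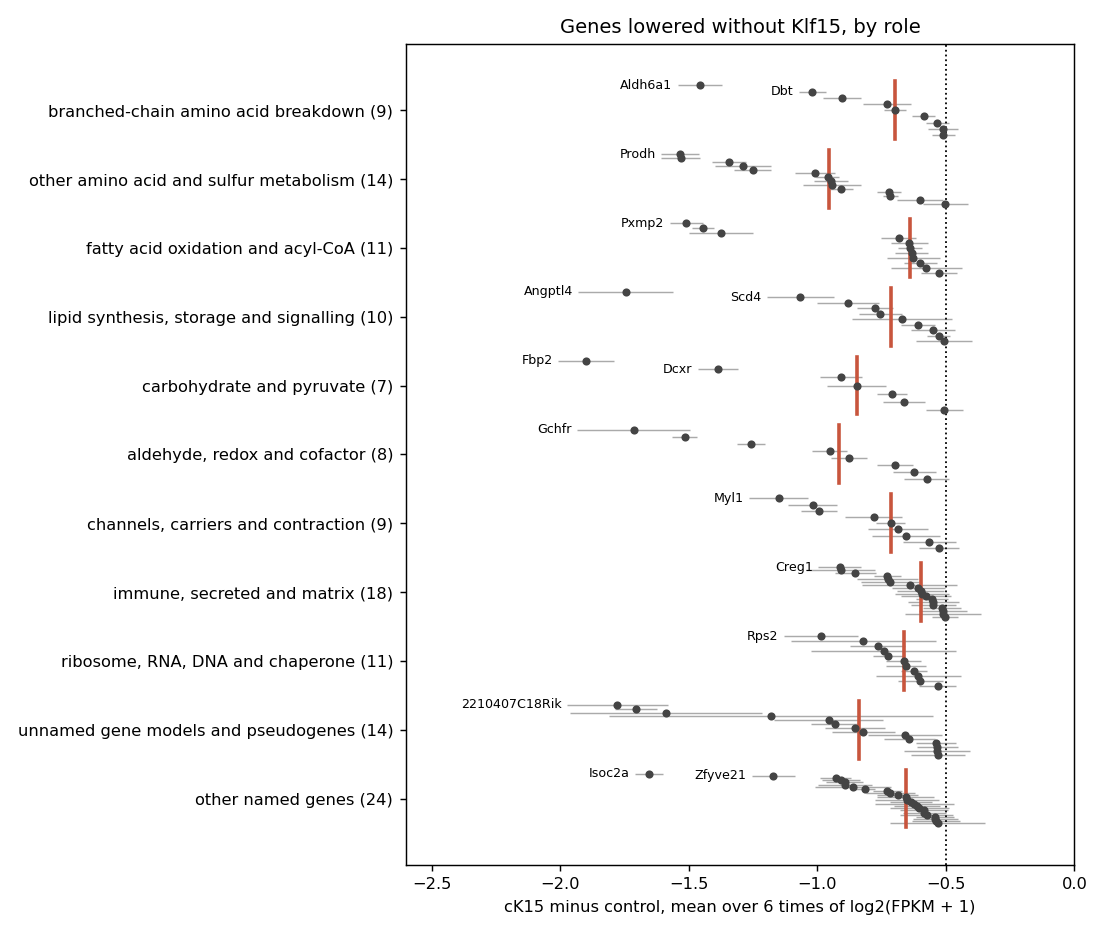
Each point is 1 of the 135 genes, placed by its averaged cK15 minus control difference in log2(FPKM + 1), with bars of 1 SE; the red line is the median of the group, the dotted line the threshold of -0.5 and the number in brackets the genes in the group. Other amino acid and sulfur metabolism has the lowest median, -0.95, and immune, secreted and matrix genes the highest, -0.60.

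Fbp2, the muscle form of fructose-1,6-bisphosphatase, had the lowest difference of all. It was at 13.9, 26.0 and 39.1 FPKM in control and at 3.65, 5.71 and 9.52 FPKM in cK15 (lowest, median and highest of 18 libraries in each), a difference of -1.90 (SE 0.11). No cK15 library reached the lowest control library. Isoc2a, which encodes an isochorismatase-domain protein, was at 36.5, 41.4 and 58.4 FPKM in control and at 9.31, 13.2 and 16.1 FPKM in cK15. Its groups stood apart as well, with a difference of -1.66 (SE 0.055). Selenbp1 encodes a selenium-binding protein with methanethiol oxidase activity. Its control libraries ran from 125 to 181 FPKM with a median of 155, and its cK15 libraries from 43.0 to 64.7 FPKM with a median of 54.0. The mean in cK15 was 34.5% of the control mean, and the difference was -1.52 (SE 0.048).

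The other genes among the 12 lowest included low ones whose groups touched. The unnamed gene 2210407C18Rik was at 1.76, 5.40 and 13.6 FPKM in control while 5 cK15 libraries were listed at 0, with a cK15 median of 1.02 and a highest value of 2.83 FPKM. Its highest cK15 library lay above its lowest control library. Gchfr, the feedback regulator of the GTP cyclohydrolase that starts tetrahydrobiopterin synthesis, was at 2.89, 7.32 and 12.8 FPKM in control. In cK15 it was listed at 0 in 4 libraries, with a median of 1.75 and a highest value of 4.34 FPKM, and its groups overlapped too. The gene 2610203C22Rik, a long non-coding RNA, was at 4.81, 7.77 and 11.7 FPKM in control and at 0.747, 1.84 and 3.07 in cK15, without overlap. It lies across Adhfe1, which also meets the thresholds and was left out by name, and since the labels do not say whether counting used the strand, reads of these genes cannot be told apart.

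**Figure D2:**
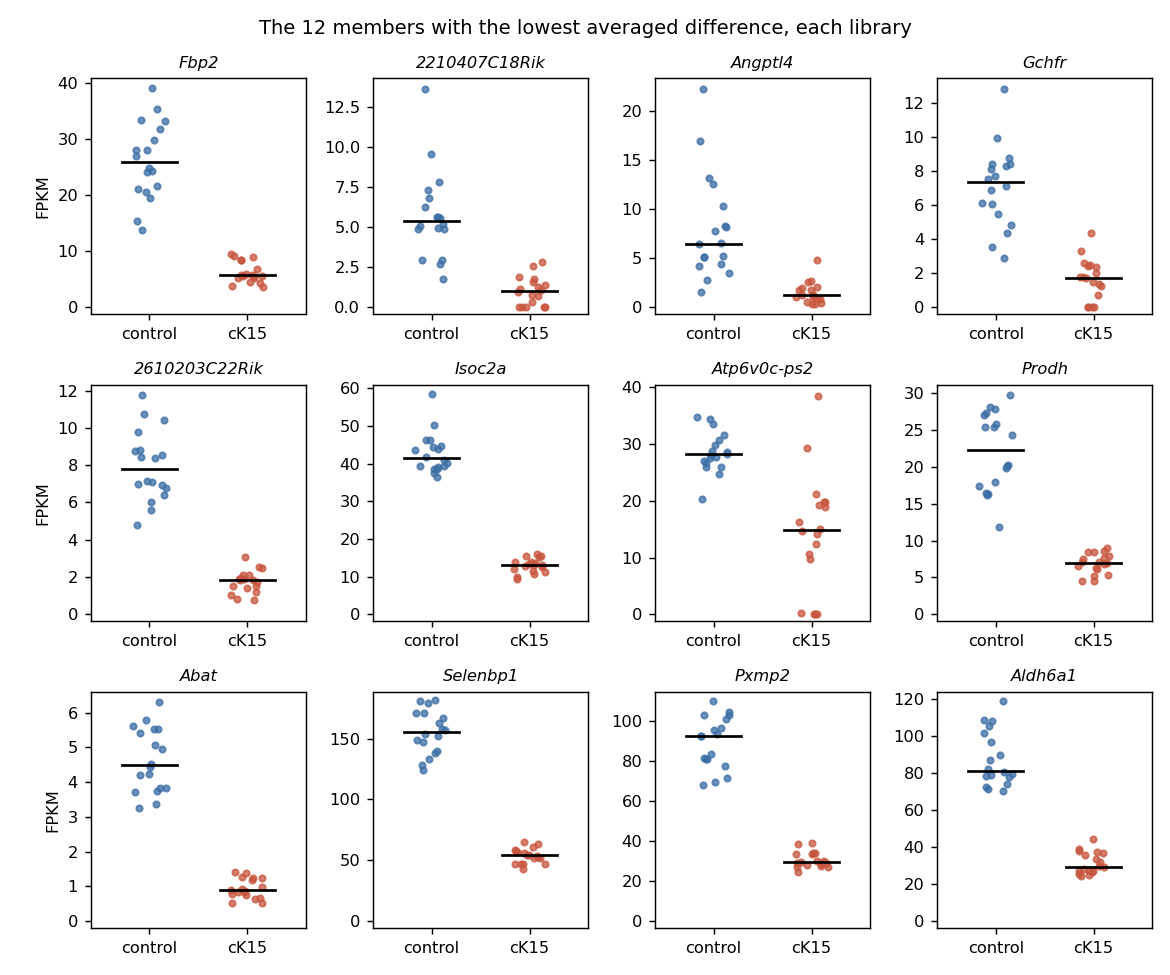
FPKM of each library (points; 18 control in blue, 18 cK15 in red) and the median of each genotype (black line) for the 12 genes with the lowest averaged difference, each on its own axis. In Fbp2, Isoc2a, Prodh, Abat, Selenbp1, Pxmp2, Aldh6a1 and 2610203C22Rik the groups do not overlap, and in Atp6v0c-ps2 some cK15 libraries lie at 0 and others among the controls.

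The 250 bases before the start of 8 genes are shown for the CACCC sequence named above, from RefSeq on GRCm38.p6, each 5′ to 3′ on its gene's strand. Capitals mark CACCC or its reverse complement GGGTG. The genes are the 7 of the 12 lowest for which a window was given, and Lin52, the neighbour of Aldh6a1. The windows are chr13:62858401-62858650 on the minus strand for Fbp2, chr11:58613493-58613742 on the minus strand for 2210407C18Rik, chr2:119167538-119167787 on the plus strand for Gchfr, chr7:4876803-4877052 on the plus strand for Isoc2a, chr16:18089191-18089440 on the minus strand for Prodh and chr3:94932833-94933082 on the plus strand for Selenbp1. Those of Aldh6a1, chr12:84451025-84451274 on the minus strand, and of Lin52, chr12:84451258-84451507 on the plus strand, face each other. The window of Prodh precedes a listed start within the annotated gene (chr16:18071726-18089283), so part of that window lies inside the gene.
Fbp2: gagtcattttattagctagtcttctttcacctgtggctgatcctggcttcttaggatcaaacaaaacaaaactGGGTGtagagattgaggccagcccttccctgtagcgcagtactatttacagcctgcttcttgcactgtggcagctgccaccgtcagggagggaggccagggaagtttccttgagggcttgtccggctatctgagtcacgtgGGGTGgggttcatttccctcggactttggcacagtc
2210407C18Rik: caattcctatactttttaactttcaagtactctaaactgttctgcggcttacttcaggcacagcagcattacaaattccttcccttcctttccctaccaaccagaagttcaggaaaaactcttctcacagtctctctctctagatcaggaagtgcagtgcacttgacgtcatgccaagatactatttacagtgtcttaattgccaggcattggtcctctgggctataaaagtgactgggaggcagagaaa
Gchfr: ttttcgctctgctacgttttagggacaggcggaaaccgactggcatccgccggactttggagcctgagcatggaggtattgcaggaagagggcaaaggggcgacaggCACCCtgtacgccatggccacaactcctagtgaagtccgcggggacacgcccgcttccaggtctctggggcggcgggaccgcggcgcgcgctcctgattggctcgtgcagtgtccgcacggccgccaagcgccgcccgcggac
Isoc2a: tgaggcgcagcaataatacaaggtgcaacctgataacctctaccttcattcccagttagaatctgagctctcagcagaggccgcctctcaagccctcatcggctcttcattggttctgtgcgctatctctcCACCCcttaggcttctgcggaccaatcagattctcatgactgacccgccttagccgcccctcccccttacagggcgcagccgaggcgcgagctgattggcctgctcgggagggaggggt
Prodh: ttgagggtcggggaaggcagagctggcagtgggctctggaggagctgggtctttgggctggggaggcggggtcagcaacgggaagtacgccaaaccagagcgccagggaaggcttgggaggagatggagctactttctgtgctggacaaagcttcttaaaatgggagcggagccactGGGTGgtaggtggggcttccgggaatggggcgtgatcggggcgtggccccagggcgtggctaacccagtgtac
Selenbp1: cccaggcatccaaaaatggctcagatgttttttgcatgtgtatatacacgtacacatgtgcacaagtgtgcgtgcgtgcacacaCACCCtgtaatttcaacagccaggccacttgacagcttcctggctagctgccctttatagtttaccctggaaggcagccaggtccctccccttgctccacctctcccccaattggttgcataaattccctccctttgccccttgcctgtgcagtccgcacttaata
Aldh6a1: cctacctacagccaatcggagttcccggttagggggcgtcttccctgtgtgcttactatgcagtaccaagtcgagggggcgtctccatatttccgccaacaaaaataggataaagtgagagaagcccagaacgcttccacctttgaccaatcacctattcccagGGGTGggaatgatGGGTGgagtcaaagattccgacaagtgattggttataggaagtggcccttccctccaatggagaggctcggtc
Lin52: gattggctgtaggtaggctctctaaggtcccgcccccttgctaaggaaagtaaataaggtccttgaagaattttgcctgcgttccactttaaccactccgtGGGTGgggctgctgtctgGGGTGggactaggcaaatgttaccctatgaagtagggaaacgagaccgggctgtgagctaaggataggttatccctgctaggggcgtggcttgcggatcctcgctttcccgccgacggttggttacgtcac
Fbp2, Aldh6a1 and Lin52 held 2 such boxes, Gchfr, Isoc2a, Prodh and Selenbp1 held 1, and 2210407C18Rik, the gene with the next lowest difference after Fbp2, held none. Of all 27025 RefSeq windows of this length, 51.3% held CACCC on either strand, and of those of tested genes 56.7%, so a box in a window is a description and common. A window was given for 90 of the 135 genes, 66.7%, which is under the 80% needed for a check over the set, so no share over the 135 genes is given.

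Branched-chain amino acids are split by a transaminase, decarboxylated by the branched-chain ketoacid dehydrogenase complex and then broken down by separate mitochondrial steps for leucine, isoleucine and valine. Of the 135 genes, 9 belong there, with a median difference of -0.70 and no overlap of the groups in 7. Dbt, the core subunit of the dehydrogenase complex, was at 20.5, 27.3 and 38.7 FPKM in control and at 11.4, 13.9 and 16.3 in cK15, a difference of -1.02 (SE 0.053). Ppm1k, the phosphatase that activates the complex, was at 14.4, 19.9 and 33.7 FPKM in control and 9.06, 11.2 and 15.5 in cK15, with a slight overlap and a difference of -0.73 (SE 0.094). In valine breakdown Aldh6a1, methylmalonate semialdehyde dehydrogenase, was the lowest of the 9: 70.5, 81.2 and 119 FPKM in control against 24.3, 29.3 and 44.5 in cK15, a difference of -1.46 (SE 0.086). Mut, methylmalonyl-CoA mutase, which takes the product of propionyl-CoA into the citric acid cycle, had a difference of -0.90 (SE 0.072), its libraries at 55.0 to 106 FPKM in control and at 28.9 to 49.5 in cK15. Neither gene overlapped between genotypes.

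The subunits of methylcrotonyl-CoA carboxylase, a step of leucine breakdown, differed by -0.70 (Mccc2, SE 0.042) and -0.53 (Mccc1, SE 0.045). Acadsb, which dehydrogenates the branched acyl-CoA of isoleucine, Echs1, enoyl-CoA hydratase, and Hsd17b10, a dehydrogenase of the same path, lay at -0.51, -0.59 and -0.51. Echs1 was the most abundant of the 9, at 456 to 604 FPKM in control and 275 to 423 in cK15. At the other end, Mccc1 was among the 3 genes with the smallest spread of cK15 libraries within a time (SD 0.089 of log2(FPKM + 1)). The 9 averaged differences ran from -0.51 to -1.46.

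Other amino acid and sulfur metabolism had 14 genes and the lowest median of the groups, -0.95, with no overlap in 10. Proline breakdown runs through Prodh, proline dehydrogenase, and Aldh4a1, the next enzyme. Prodh was at 11.8, 22.3 and 29.8 FPKM in control and at 4.45, 7.01 and 8.98 in cK15, and its mean in cK15 was 31.2% of control. Aldh4a1 was at 30.0, 36.7 and 42.4 FPKM against 15.6, 18.5 and 26.2. The difference of Prodh was -1.53 (SE 0.074) and that of Aldh4a1 -0.91 (SE 0.045). Oat, ornithine aminotransferase, which feeds the same intermediate, lay at -0.72 (SE 0.028), with 132 to 163 FPKM in control and 86.3 to 96.8 in cK15. It had the smallest spread of all 135 genes among cK15 libraries of a time, an SD of 0.043.

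Abat, which transaminates GABA and takes part in valine-derived and beta-alanine breakdown, was at 3.25, 4.49 and 6.30 FPKM in control and at 0.521, 0.882 and 1.41 in cK15, 20.3% of the control mean. Acy1, aminoacylase, was at 15.1, 19.3 and 25.6 FPKM against 4.41, 6.96 and 9.43. The groups of Abat and of Acy1 did not overlap. For Gnmt, glycine N-methyltransferase, 11 of 18 cK15 libraries were listed at 0 and the highest was at 1.16 FPKM, while control libraries ran from 0.964 to 3.44. Its difference of -1.29 (SE 0.11) is on a scale that understates change at this level. Gcat, which splits the threonine-derived intermediate into glycine, Gcdh, glutaryl-CoA dehydrogenase of lysine breakdown, and Gpt, alanine aminotransferase, lay at -1.25, -0.96 and -0.95, without overlap. The group also holds Pm20d1, a secreted enzyme that joins amino acids to fatty acids (-1.01), 9030617O03Rik, the D-glutamate cyclase gene (-0.72), and Asl, argininosuccinate lyase (-0.60). Tst and Mpst, neighbouring genes for sulfur transferases that handle sulfide and cyanide, lay at -0.94 and -0.50.

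Fatty acid oxidation and acyl-CoA metabolism had 11 genes with a median of -0.64, and 3 of them had no overlap. Pxmp2, a channel protein of the peroxisomal membrane, was at 68.2, 92.5 and 110 FPKM in control and 24.7, 29.3 and 38.9 in cK15. Its difference was -1.51 (SE 0.064), and its highest cK15 library lay below its lowest control library. Ucp3, a mitochondrial carrier of the uncoupling family, was at 5.43, 10.5 and 23.0 FPKM in control and 0.953, 3.57 and 7.14 in cK15, a difference of -1.37 (SE 0.13) with overlap.

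The other genes of fatty acid oxidation described here lay between -0.53 and -0.68. Acaa2, which performs the thiolase step of the mitochondrial cycle, was at 834 to 1434 FPKM in control and 500.5 to 836 in cK15, so the ranges just met (-0.68, SE 0.068). Ech1, an isomerase for unsaturated fatty acids, had 2105 to 3496 FPKM in control and 1351 to 2232 in cK15 and was the most abundant of the 135 genes. Decr1, the reductase for the same kind of substrate, lay at -0.53. Acot11 and Acot7, which release fatty acids from CoA, Ehhadh, the peroxisomal bifunctional enzyme, and Slc25a42, the mitochondrial carrier of CoA, lay at -0.64, -0.64, -0.63 and -0.58. Of these 4 only Acot7 had no overlap, with 25.9 to 37.6 FPKM in control and 15.3 to 21.98 in cK15.

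Among 10 genes of lipid synthesis, storage and signalling the median was -0.71. Angptl4, a secreted inhibitor of lipoprotein lipase and a known target of PPAR receptors, was at 1.58, 6.47 and 22.2 FPKM in control and 0.309, 1.24 and 4.796 in cK15, a mean of 18.7% of control. Its control values spread widely, and its difference was -1.75 (SE 0.18). It was -2.63 at 4 am, where control stood at 13.2, 16.98 and 22.2 FPKM, and -1.13 at 8 am, where control stood at 1.58, 5.11 and 8.22. Scd4, a stearoyl-CoA desaturase, was at 0.850 to 5.39 FPKM in control and 0.223 to 1.64 in cK15 (-1.07, SE 0.13). Adig, adipogenin, lay at -0.88, but its difference at 12 pm was -0.07. Adipocyte markers had a mean under 1 FPKM, with a summed level of 0 to 4.03 FPKM in control and 0 to 2.21 in cK15 libraries. The part of fat cells in these 3 differences was not tested. Alox5, which makes leukotrienes, was the gene of this group without overlap: 5.92 to 9.95 FPKM against 2.18 to 5.21 (-0.78, SE 0.071). Fads3, Mboat2, Plcd1, Hsd17b11, Gpam and Insig1 lay between -0.51 and -0.75.

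The 7 carbohydrate and pyruvate genes had a median of -0.85, and Fbp2, described above, leads them. Dcxr, which reduces xylulose and dicarbonyls, was at 12.3, 21.0 and 24.6 FPKM in control and 5.11, 6.45 and 11.4 in cK15 (-1.39, SE 0.077). Pcx, pyruvate carboxylase, which refills the citric acid cycle, was at 6.01, 7.72 and 10.2 FPKM against 2.20, 3.85 and 5.22 (-0.91, SE 0.081). Ldhd, mitochondrial D-lactate dehydrogenase, lay at -0.71 (SE 0.058), at 28.9 to 42.9 FPKM and 16.4 to 27.4. In each of these 3 genes the cK15 libraries lay below all control libraries. Slc37a2, a sugar-phosphate exchanger, and Impa2, inositol monophosphatase, lay at -0.66 and -0.51 with overlap.

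Txnip, the thioredoxin-interacting protein that restrains glucose uptake, was at 82.4, 162 and 262 FPKM in control and 56.9, 98.4 and 142 in cK15, with overlap. Its difference of -0.85 (SE 0.11) was not even: it was -1.68 at 4 am and -0.49 at 4 pm, and -1.01 in the 24 libraries but -0.52 in the 12 that stood apart. At 4 am the control libraries were at 214, 231 and 246 FPKM and the cK15 libraries at 60.1, 61.5 and 96.5. Gm15441, a long non-coding RNA that lies across the whole of Txnip (chr3:96555768-96566801, with Txnip at chr3:96557957-96561857, GRCm38), gave nearly the same values: -0.82 on average, -1.57 at 4 am, -1.001 in the 24 libraries and -0.46 in the 12. Without the strand of the counting, the RNAs of this locus cannot be told apart.

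The 8 aldehyde, redox and cofactor genes had a median of -0.91. Gchfr and Selenbp1 are described above. Aldh2, the mitochondrial aldehyde dehydrogenase that clears acetaldehyde and lipid aldehydes, was at 83.4, 95.1 and 129 FPKM in control and 31.1, 41.5 and 53.7 in cK15, a difference of -1.26 (SE 0.054) without overlap. Ddt, D-dopachrome tautomerase, and Cyb5, cytochrome b5, an electron donor of lipid-modifying enzymes, also had separate groups, at -0.95 (SE 0.067) and -0.88 (SE 0.070). The other 3, Fam213a, a peroxiredoxin-like gene, Naprt1, which makes NAD from nicotinic acid, and Aldh1a2, which makes retinoic acid, lay between -0.58 and -0.70 with overlap. Of the 14 tested genes of the Aldh family 7 were lower and 1 higher, and 4 of the 7 are among the 135.

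Channels, carriers and contractile genes numbered 9, with a median of -0.72. Myl1, the fast skeletal muscle form of the myosin essential light chain, was at 18.4, 33.3 and 60.8 FPKM in control and 9.88, 13.2 and 25.6 in cK15 (-1.15, SE 0.11), with overlap. Scn4a, the sodium channel of skeletal muscle, was at 2.59, 3.93 and 6.15 FPKM against 0.617, 1.502 and 2.51 (-1.02, SE 0.096), without overlap. Of the skeletal muscle markers only 3 had a mean of at least 1 FPKM, and 1 of them, Ckm, which heart muscle also expresses, was higher (0.22) and none lower; their part in the 2 differences was not tested. Slc25a34, a mitochondrial carrier, was at 15.2 to 31.9 FPKM in control and 6.57 to 14.0 in cK15 (-0.99, SE 0.071), also without overlap. Scn4b, a sodium channel beta subunit, lay at -0.78 (SE 0.11) and Slc41a1, a magnesium carrier, at -0.53. Cnn2, a calponin, Slc25a22, the mitochondrial glutamate carrier, and Ppp1r1a, an inhibitor of protein phosphatase 1, lay between -0.66 and -0.72.

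Immune, secreted and matrix genes were the largest named group, 18 genes, with the smallest median, -0.60. Creg1, a secreted lysosomal glycoprotein, was at 23.5, 29.7 and 40.3 FPKM in control and 9.14, 15.9 and 19.5 in cK15 (-0.91, SE 0.083). Plbd1, a phospholipase B-like gene, was at 43.9 to 68.9 FPKM and 27.0 to 39.8 (-0.73, SE 0.051). These were the 2 genes of the group without overlap. The complement genes C4b, Cfb and Cfp (properdin) lay at -0.91 (SE 0.13), -0.58 (SE 0.097) and -0.59 (SE 0.10). Lgals4, a galectin, lay at -0.85, with -0.68 in the 24 libraries and -1.21 in the 12. The chemokine gene Ccl2 went the other way, at -0.68 in the 24 and -0.17 in the 12 libraries, and Ifi27l2a, an interferon-induced gene, at -0.73 and -0.36. Serpina3n, Emid1, Lst1, Fkbp10, Prkcd, Lama5, Nfkbib, Wfdc1, Srpx and Dock8 make up the rest, at -0.50 to -0.73, and Lst1 reached only -0.08 at 12 am.

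Some markers of cells that express several of these genes were lower too, by smaller median differences. Of 9 macrophage markers tested, 7 were lower in cK15 and none higher (limma), with a list median of -0.25 and a summed level of 174 to 269 FPKM in control and 155 to 247 in cK15. Of 6 fibroblast markers, 5 were lower, with a median of -0.23 and sums of 1378 to 1777 and 1191 to 1562 FPKM. With a replicate block, none of the 9 macrophage markers was called, and 3 of the 6 fibroblast markers were lower. None of the macrophage or fibroblast markers was listed at 0 throughout. Their part in the lower values of the 18 genes was not tested.

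Ribosome, RNA, DNA and chaperone genes numbered 11, with a median of -0.66. Hspe1, the small subunit of the mitochondrial chaperonin, was at 81.2 to 124 FPKM in control and 54.7 to 74.9 in cK15 (-0.62, SE 0.050), and Pole, the catalytic subunit of a replicative DNA polymerase, was at 1.10 to 2.57 FPKM and 0.363 to 1.09 (-0.72, SE 0.058). In those genes alone of the 11 the groups did not overlap. Spc24, of the kinetochore, Lin52, of a cell cycle repressor complex, Apex2, a DNA repair nuclease, and Pold4, a small polymerase subunit, lay between -0.53 and -0.77. Rps12 was listed at 0 in 5 cK15 libraries and 1 control library, and its difference ran from close to 0 at 8 am to -1.46 at 4 am. Ribosomal protein genes have many near-identical pseudogenes, so values of Rps12 and of Rps2 are uncertain where reads could be split.

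Rps2, a protein of the small ribosomal subunit, had values in cK15 that fell into steps. Control libraries lay close together, at 566 to 734 FPKM. In cK15, 4 libraries (replicates 1 and 3 of 12 am and of 8 pm) were at 119 to 150 FPKM, 12 were at 332 to 489, and replicate 4 of 4 pm and of 8 pm were at 591 and 643, within the control range. The averaged difference of -0.98 (SE 0.14) is thus a mean over unlike libraries, with an SD within times of 0.654 in cK15 and 0.118 in control.

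Atp6v0c-ps2, annotated on chromosome 6, is a transcribed pseudogene of a proton pump subunit gene. Its entry split the same libraries into like steps, but within the middle 12 cK15 libraries its order did not follow that of Rps2. It was at 20.3 to 34.7 FPKM in control. In cK15 it was listed at 0 in 3 of those 4 libraries and at 0.30 in the other, lay between 9.70 and 21.2 FPKM in the next 12, and was at 29.4 and 38.5 in the 2 in which Rps2 was highest. Its SD within times was 1.63 in cK15, among the 3 largest of the 135 genes, and 0.198 in control. Its averaged difference was -1.59 (SE 0.37), with -3.24 at 12 am and -3.11 at 8 pm, the times of the 4 libraries, and -0.40 at 4 pm. The parent gene Atp6v0c was close to 0 throughout, with a highest value of 0.0167 FPKM over the cK15 and 0.00312 over the control libraries. Reads of the parent and the pseudogene may therefore have been assigned to the pseudogene's entry. The RNA of origin, and with it the chromosome it comes from, is uncertain.

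Rnps1, an RNA-binding protein of splicing complexes, and Hcfc1r1, a regulator of host cell factor, lie on chromosome 17 near Rps2, within chr17:23673608-24721927 (GRCm38). Rnps1 was at 7.14 to 8.79 FPKM in the 4 libraries, at 9.72 to 14.5 in 12 others, and at 19.8 and 16.1 in the 2 with the highest Rps2, while control lay at 14.5 to 23.97. Hcfc1r1 was at 15.7 to 27.2 FPKM in the 4 libraries and at 25.29 to 48.85 in the 12 others, so these ranges overlapped. In the 2 with the highest Rps2 it was at 35.6 and 59.3, the latter its highest cK15 value, while control lay at 37.55 to 65.7. Between Hcfc1r1 and Rps2 31 tested genes lie, with a median difference of -0.06. Among these 31, 4 stood at -0.5 or lower and none at 0.5 or higher; the fourth beside the named 3 is Snhg9, which overlaps Rps2. The 4 libraries are cK15 replicates 1 and 3, and 1 of them at 12 am is among the 12 that stood apart. What separates these libraries was not tested.

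Malat1 and Neat1, neighbouring long non-coding RNAs that are kept in the nucleus, depended on 1 series of libraries. In cK15 replicate 3 Malat1 was at 2.39 to 9.48 FPKM over the 6 times, the lowest of its time in each, and at 14.4 to 27.7 FPKM in the other 12 cK15 libraries. Control libraries lay at 15.97 to 48.6 FPKM, and 6 of them that stood apart by their most abundant genes lay at 30.8 to 48.6. Without cK15 replicate 3 the difference of Malat1 went from -0.82 (SE 0.28) to -0.24 and that of Neat1 from -0.61 (SE 0.17) to -0.28. Neat1 was listed at 0 or at up to 0.371 FPKM in cK15 replicate 3, and its difference at 8 pm was -0.04. The part of nuclear RNA content in these values was not tested.

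Unnamed gene models and pseudogenes, 14 in all, had a median of -0.84, and 5 were listed at 0 in some cK15 library. Of the 575 tested genes with such names 32 were lower and 11 higher by limma, and 11 of the 575 are among the 135. Such genes were called less often than all tested genes, of which 7.18% were lower and 4.06% higher. Beyond those described, Gm5512 had the largest spread among cK15 libraries of a time (SD 1.69) and an SD of 2.16 in control. In all 12 libraries that stood apart it was at most at 0.0210 FPKM, and its difference was -1.76 in the 24 libraries and -0.01 in the 12. Its difference was -0.61 without control replicate 4, -0.72 without cK15 replicate 3, -1.83 without cK15 replicate 4 and -1.90 without control replicate 2. Of the others, 2310001H17Rik lay at -0.96 and 2310002L09Rik at -0.85. The values of 4933400A11Rik, Tmem181b-ps, A530016L24Rik, B430212C06Rik, Gm826 and Pisd-ps1 lay between -0.53 and -0.66.

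The other 24 named genes had a median of -0.65, and 6 of them had no overlap. Beside Isoc2a these were Zfyve21, an endosomal protein (14.2 to 23.7 FPKM in control, 3.92 to 10.9 in cK15, -1.17, SE 0.085), Ttc38 (-0.93), Ttc7, which recruits a lipid kinase to the plasma membrane (-0.91), Mpnd (-0.81) and Tmem205 (-0.73). Armc2, Tpd52l1, Dynlt1b, a dynein light chain, Fam151a, B3gnt8, Tmem120a, Tlcd2, Tmem179, Tmem82, Agfg2, Tmem256, Mettl7a1, Epb4.1l5, Cdkl1, Arl3, Cib3 and Ccdc159 lay between -0.53 and -0.89. Cib3 was listed at 0 in 6 cK15 libraries and in 1 control library.

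On the genome, all 135 genes were matched to RefSeq (GRCm38.p6), 6 of them through an older name, and 123 are protein-coding. They are 135 of 10599 tested genes and lie on 20 chromosomes. The highest shares were 13 of 526 tested genes on chromosome 17 (2.47%), 10 of 365 on chromosome 12 (2.74%) and 10 of 383 on chromosome 19 (2.61%). The lowest of the 20 was 4 of 831 on chromosome 2 (0.481%), and chromosome 11, with the most tested genes, had 10 of 900 (1.11%). Within 1 Mb of each other lie 32 pairs of them, made of 44 genes, and 14 of the pairs are closer than 10 kb or overlap. Overlaps with any annotated gene were found for 62 of the 135. Pairs and overlaps were not counted over all tested genes, so nothing is read from these counts.

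Several close pairs hold a strong and a weaker member. Pxmp2 and Pole, 96 bases apart on chromosome 5, lay at -1.51 and -0.72. Aldh6a1 and Lin52, 483 bases apart on opposite strands of chromosome 12, whose facing upstream sequences are printed above, lay at -1.46 and -0.66. Pm20d1 and Slc41a1, 6539 bases apart, lay at -1.01 and -0.53, and Ech1 and Lgals4, 882 bases apart, at -0.60 and -0.85. The chromosome 4 cluster of Tmem82, the non-coding AI507597 that overlaps it, and Slc25a34 lay at -0.60, -0.93 and -0.99. Fam151a and Acot11, which overlap, lay at -0.69 and -0.64, Tmem205 and Ccdc159 at -0.73 and -0.72, and Dynlt1b and Tmem181b-ps at -0.86 and -0.64. Of genes left out by name, Adhfe1 overlaps 2610203C22Rik, Pfkfb1 overlaps Apex2, and Bckdha lies 0.4 kb from B3gnt8. In overlapping genes a shared read cannot be assigned without the strand.

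By time of day the median difference of the 135 genes was -0.80 at 12 am, -0.75 at 4 am, -0.71 at 8 am, -0.68 at 12 pm, -0.74 at 4 pm and -0.72 at 8 pm, while the median over all tested genes stayed between -0.03 and 0.01. The difference was strongest at 12 am for 37 genes and at 12 pm for 11, and weakest at 12 pm for 40 and at 12 am for 16. Lipid synthesis genes had their weakest median at 12 pm, -0.43, and their strongest at 4 pm, -0.90. The genes with a difference near 0 at some time were Rps12 at 8 am, AI507597 at 4 pm (-0.02), Neat1 at 8 pm, Gm826 at 12 pm (-0.06), Adig at 12 pm and Lst1 at 12 am. Differences between times rest on 3 libraries per group and were not tested, because they come from the contrast that chose the genes.

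**Figure D3:**
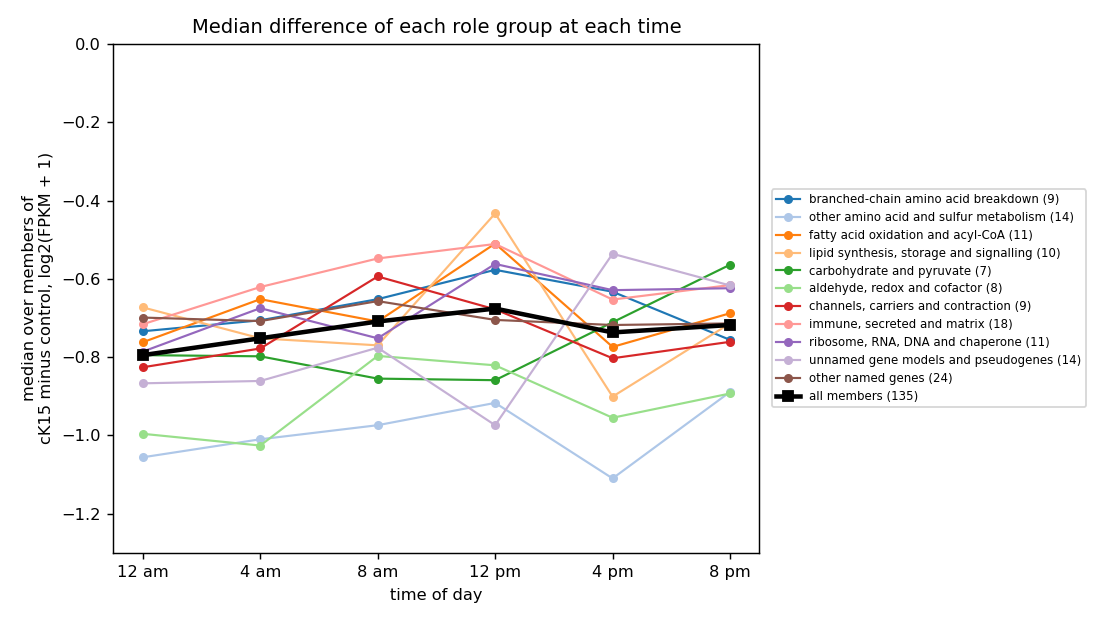
Median cK15 minus control difference in log2(FPKM + 1) at each of the 6 times for each role group (colours, number of genes in brackets) and for all 135 genes (black). The black line runs between -0.68 at 12 pm and -0.80 at 12 am, and other amino acid and sulfur metabolism lies below it at every time.

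Rhythm within a genotype was not used to choose the genes and was tested in the 18 libraries of each by a 24 h cosine curve with limma, adjusted over all tested genes. In control, 5 of the 135 genes passed, 3.7% of them, against 2.8% of all tested genes. In cK15 1 passed, 0.741%, against 1.08%. At an unadjusted p under 0.05 these counts were 33 in control, where 14% of tested genes passed, and 14 in cK15, where 8.95% passed. The median amplitude, the height of the peak over the curve's mean, was 0.13 in control and 0.12 in cK15 on the log2(FPKM + 1) scale, against 0.09 and 0.08 over all tested genes. The fitted peak lay between hour 20 and hour 4 for 70 of the 135 genes in control, a window chosen after the values were seen, where 39.8% of tested genes lay, and for 43 in cK15, where 38.7% lay. Most of these peaks belong to curves that did not pass.

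Prodh passed in control, where it was at 25.4, 25.9 and 28.1 FPKM at 12 am and 25.4, 27.1 and 29.8 at 4 am, and at 16.1, 16.4 and 16.5 at 12 pm, so the night and noon libraries did not overlap. The amplitude was 0.41 (SE 0.066) with a peak at hour 1.23 (limma adjusted p = 0.0026). In cK15 all libraries lay between 4.45 and 8.98 FPKM, and the amplitude was 0.15 (SE 0.082; adjusted p = 0.857). Its control call was lost in 1 of 12 alternative settings, without control replicate 3, over a range of adjusted p from 0.000823 to 0.131.

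Gpam, which starts glycerolipid synthesis, was at 135, 165 and 203 FPKM at 8 pm in control and at 104, 105 and 118 at 8 am. Its amplitude was 0.33 (SE 0.052) with a peak at hour 20.13 (limma adjusted p = 0.00221), and in cK15 0.17 (SE 0.043; adjusted p = 0.153). Without control replicate 4 its adjusted p was 0.154, the highest of its alternatives, which began at 0.000241. AI507597 had the largest amplitude of the 5 genes that passed, 0.54 (SE 0.079), with a peak at hour 23.22 (limma adjusted p = 0.00104): 14.8, 16.04 and 19.9 FPKM at 8 pm against 5.93, 6.97 and 7.27 at 12 pm. Its call was lost without control replicate 2 or 3 (adjusted p over all alternatives 0.000464 to 0.107). In cK15 its amplitude was 0.31 (SE 0.18; adjusted p = 0.899).

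Lgals4 was at 48.4, 53.6 and 71.2 FPKM at 12 am and 24.7, 26.3 and 27.8 at 12 pm in control, with an amplitude of 0.45 (SE 0.087; limma adjusted p = 0.0147). In cK15 its amplitude was 0.30 (SE 0.073; adjusted p = 0.117), with 26.0, 26.1 and 26.8 FPKM at 12 am and 15.5, 17.4 and 17.7 at 12 pm. Acot11 had an amplitude of 0.26 (SE 0.060; limma adjusted p = 0.0444) in control and 0.15 (SE 0.075; adjusted p = 0.800) in cK15. The control call of Lgals4 was lost in 4 of 12 alternatives: without any 1 control replicate series (adjusted p 0.0729 to 0.235) and in the libraries with a share of at least 20% (0.0596), over a range that began at 0.006. That of Acot11 was lost in 6 of 11: without any 1 control replicate series (0.172 to 0.315), with no filter (0.0661), in the libraries with a share of at least 20% (0.273) and with 6 time means in place of the curve (0.343), over a range that began at 0.00938. Cnn2, the gene that passed in cK15, was there at 19.5, 22.5 and 23.98 FPKM at 8 am and 13.1, 14.3 and 15.3 at 12 am. Its amplitude was 0.29 (SE 0.046) with a peak at hour 9.18 (limma adjusted p = 0.00384), and in control 0.20 (SE 0.059) with a peak at hour 10.32 (adjusted p = 0.170). The cK15 call was lost in 4 of 12 alternatives, without any 1 cK15 replicate series (adjusted p 0.0632 to 0.184) and with 6 time means (0.0607), over a range that began at 0.00133. The difference in rhythm between genotypes was not tested for any of these genes.

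**Figure D4:**
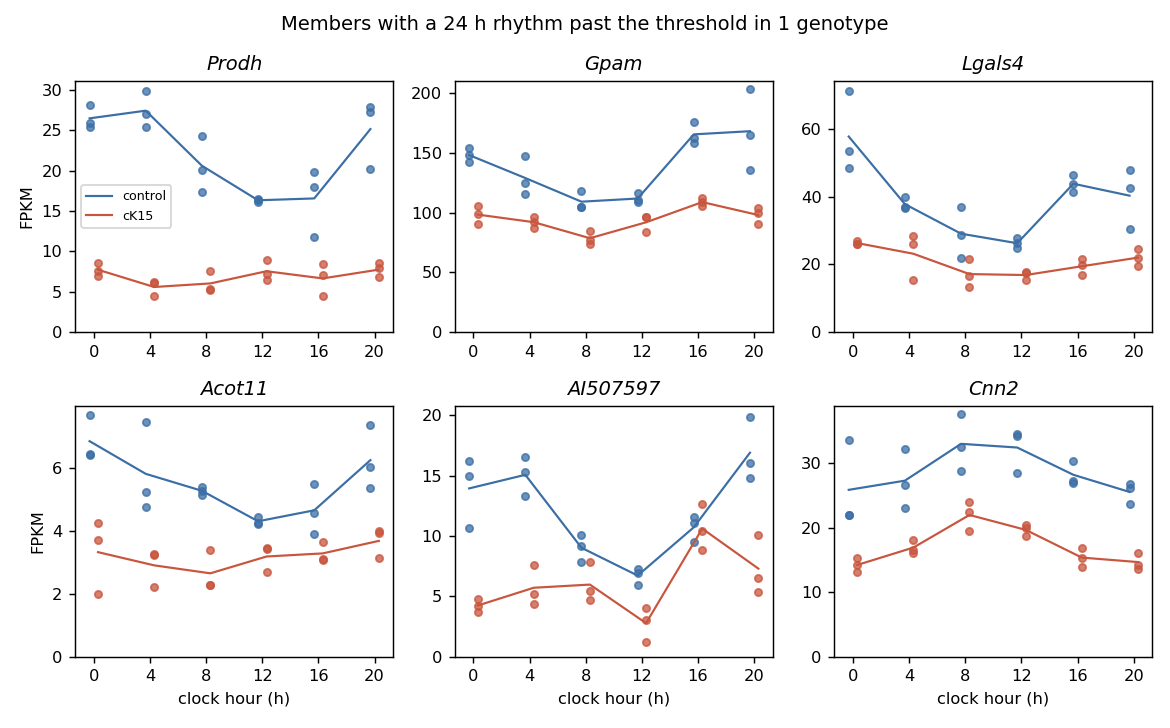
FPKM of each library against clock hour (h) for the 6 genes with a 24 h rhythm past the threshold in 1 genotype, control in blue and cK15 in red, with lines through the means of 3 libraries and each panel on its own axis from 0. Control means of Prodh, Lgals4, Acot11 and AI507597 are lowest at 12 pm and that of Gpam at 8 am, and Cnn2 has its highest mean at 8 am in both genotypes.

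Lists of related pathway genes show where the 135 sit, by calls of the fit without a replicate block, as for the marker lists above. In that fit 7.18% of all tested genes were lower and 4.06% higher. Of 39 tested genes of amino acid catabolism, 20 were lower and 5 higher by limma, 13 of the 20 are among the 135, and the list median was -0.16. The lower genes outside the 135 began with Pcca, a subunit of propionyl-CoA carboxylase, at -0.39, and the 5 higher were Gpt2 (0.33), Dld (0.20), Got2 (0.14), Auh (0.12) and Got1 (0.11). Gpt2 is the mitochondrial alanine aminotransferase and stands opposite to Gpt, at -0.95. Of 40 fatty acid genes 27 were lower and none higher, 8 of them among the 135, with a list median of -0.28. The carnitine enzymes Cpt1a (-0.47) and Cpt2 (-0.32) and the trifunctional protein genes Hadha (-0.31) and Hadhb (-0.35) were lower by less than the threshold. Triglyceride and lipid handling had 8 lower and 1 higher of 22 (median -0.12), redox and detoxification 14 and 1 of 46 (median -0.06), and nucleotide and one-carbon metabolism 4 and 2 of 19 (median -0.06). Of 22 tested antigen presentation and interferon genes 6 were lower and none higher (median -0.23), and of 21 cytoskeleton and sarcomere genes 3 were higher and none lower (median 0.08). None of the 135 is in those last 3 lists.

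Just inside the threshold of -0.5 lay Dock8 (-0.502; 3.56 to 5.83 FPKM in control and 2.29 to 3.81 in cK15), Mpst (-0.502; 2.20 to 4.54 and 1.24 to 3.61) and Insig1 (-0.506; 4.17 to 9.93 and 3.09 to 8.54). Just outside lay Camkk2, a kinase of calcium signalling (-0.497; 1.88 to 4.94 and 1.04 to 2.55), and Ckb, the brain form of creatine kinase (-0.495; 25.8 to 43.9 and 19.0 to 32.4). A further 16 genes were past the average but not below 0 at every time. The mirrored rule, for genes higher in cK15, was met by 20 genes.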

How the data were processed

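The authors deposited FPKM per gene symbol and library for 36 heart apex libraries, in a table for each genotype. The tools GSNAP and HTSeq and the build mm10 appear per the submitters' processing notes. Tool versions, the annotation, the strand setting of counting and the FPKM program remain not given in the sources used here. Ribosomal RNA was depleted and stranded libraries were sequenced as 100 bp pairs, per the labels' protocols. FPKM divides by library total, so a few abundant genes can lower all others, and depth is unknown, so no counting error is given. All value columns were mapped to samples.

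Values were taken as log2(FPKM + 1). The 10599 genes with a mean of at least 1 FPKM were fitted with limma 3.58.1 in R 4.3.3 (12 group means; or a 24 h cosine and sine within each genotype), with variance moderation that follows the mean and is robust, and Benjamini-Hochberg adjustment over all of them at 0.05. The fits were tested on simulated data with independent noise in each library. Those data held no replicate series and no library sets, so they say nothing about the effect of either. SE and amplitude are on that scale. Library sets were defined by the share of the 10 most abundant genes (under 20% or not). Of the symbols, 27 had been turned into dates and 4 entries repeat a symbol; none of these is among the 135 genes.

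The 135 genes and all lists were chosen with earlier results of these data known, and role groups were assigned by textbook function from the symbols. Genes are named by a rule: the 12 lowest, the lowest of each role group, rhythmic genes, threshold neighbours, close or overlapping genes, the largest and smallest spreads, and list members. The remaining genes are listed for completeness, except for some that are not reported here. Alternatives were other filters (5, none), a pseudocount of 0.1, rescaling by median ratio or quantiles, leaving out each replicate series, each library set, a replicate block and time means.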

Additional observations from a re-analysis of the deposited data

How the results depend on the processing

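None of the 135 differences reversed in any of the 13 alternatives, and their median stayed between -0.68 and -0.89. The same libraries chose the genes, so a kept sign is not a test. With a pseudocount of 0.1, 22 genes moved by over 1.5 times, and in the 12 libraries alone 10 did. A filter of 5 FPKM leaves 85 genes meeting the rule, by construction. A pseudocount of 0.1 gives 202, of which 133 are among the 135, and rescaling 117 to 125, all among them. Leaving out a replicate series gives 133 to 163, with 115 to 127 of the 135 kept. The 24 libraries give 151, with 126 kept, and the 12 give 145, with 102 kept.

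Over all genes, 761 were called lower and 430 higher. Median-ratio rescaling gave 637 lower and 606 higher and quantile normalization 608 and 632, so the split between directions depends on scaling. Of the 135 genes, 131 were called lower under each, which is not a test, since this contrast chose them. The median over all genes moved from -0.012 to 0.009 and 0.018. The 12 libraries alone gave 374 lower and 201 higher. Without 1 replicate series the counts were 523 to 849 lower and 234 to 529 higher, lowest on each side without control replicate 3.

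Rhythm counts among the 135 genes were 5 in control and 1 in cK15, where 297 and 114 of all 10599 tested genes passed. Leaving out a replicate series gave 1 to 2 in control and 0 to 1 in cK15, with 86 to 152 and 33 to 64 over all tested genes. The libraries with a share of at least 20% gave 3 in control and 1 in cK15, with 240 and 76 over all tested genes. Adding the library set to the model gave 15 and 5, and the counts over all tested genes rose as well, to 730 and 261. The causes were not tested.

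The labels do not say that a replicate number marks a shared animal, litter or day. Same-numbered libraries of different times correlated in their deviations from group means, with a median of 0.26 in control (-0.32 to 0.55) and 0.30 in cK15 (-0.28 to 0.55), over 0.1 in 35 of 45 pairs of each genotype, against medians of -0.24 and -0.22 for libraries with other numbers. Not every pair was over 0.1, and at 8 pm the libraries that stood apart carry another number than at the other times. The numbers were not taken as a pairing, and the fit without the block was kept. That was a choice, since most pairs were over 0.1. This does not show that same-numbered libraries are independent. If they share a source, the SEs given here are too small and the calls without the block too many. With the replicate number as a fixed term in the rhythm fit, 10 and 3 of the 135 genes were rhythmic in control and cK15. Over all 10599 tested genes these counts were 470 and 202. With a replicate block (a random term) in the genotype fit, 252 genes were called lower and 94 higher, 119 of the 135 among the lower. Of the lists, the block left 15 lower and 1 higher in amino acid catabolism, 21 and 0 in fatty acid oxidation, 5 and 1 in triglyceride handling, 9 and 0 in redox, 2 and 0 in nucleotide metabolism, 7 and 0 in the Aldh family and 8 and 0 in unnamed models. By limma it left 3 fibroblast markers lower, and no call in macrophage, heart muscle cell or skeletal muscle markers, antigen presentation or cytoskeleton genes. Nor was there a call in atrial or smooth muscle and pericyte markers. Depth is unknown, so genes near 1 FPKM are the least certain.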
